A study of Mus musculus with 469 samples.

Results

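The 6 genes described here encode DNA-binding transcription factors of developing neurons and lymphocytes: Bach2, the paired genes Bcl11a and Bcl11b, and the Myt1 family of Myt1, Myt1l and St18. They were 6 of the 23281 genes measured in single cells of mouse olfactory epithelium, the nasal sheet that replaces its sensory neurons throughout life. The genes were picked because Bach2, Bcl11a and St18 differed strongly between sorts or injury states in these same libraries. The levels and differences below are therefore a description, and none of them was tested.

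Each library came from 1 cell captured on a Fluidigm C1 chip, and libraries with at least 1000 genes were kept. OMP-eGFP+ cells, from the B6 OMP-eGFP strain, were taken after transplantation (29 kept of 89, called engrafted) or 14 days after removal of the olfactory bulb (42 of 50). Neurog1-eGFP+ cells, from the FVB Neurog1-eGFP strain, were taken from uninjured epithelium (46 of 61) or 5 days (48 of 51) or 14 days (25 of 26) after bulbectomy. The reference was unsorted, uninjured epithelium of wild-type B6;129SF1/J (F1) mice in 2 runs, of which 68 and 70 libraries were kept. All mice were 8 weeks old, and every library is labelled olfactory epithelium. Bulbectomy removes the target of the sensory axons, after which the neurons die and basal cells make new ones. The eGFP reporters carry the names of Neurog1, a gene of dividing neuronal precursors, and Omp, a gene of mature sensory neurons; the eGFP protein can outlast the mRNA of the gene that drives it. The labels give neither the donor nor the host of the transplantation.

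The labels name no animal for any cell, so each group counts as 1 sample and no p-value is given for any difference between groups. Strain follows the sort, so strain and sort cannot be told apart. Intervals on shares of cells are exact Clopper-Pearson 95% intervals and cover the counting of cells alone. Median depth was 501827 and 1347935 fragments in the engrafted and 14-day OMP cells, 848317, 1136942 and 1099226 in the uninjured, 5-day and 14-day Neurog1 cells, and 504103 in the reference. A gene was called found at 10 or more CPM (counts per 1000000 of the library), which is 5 to 13 fragments at those depths. In the reference, 9 libraries of run 1 held over 10000 genes each and stood apart; Bach2, Bcl11a, Bcl11b, Myt1 and Myt1l were found in 9 of the 9, and values without them are given where they matter. Of the sorts, Neurog1 mRNA was found in 0 of 71 OMP cells, in 23 of 46, 18 of 48 and 12 of 25 uninjured, 5-day and 14-day Neurog1 cells, and in 4.35% of the reference, where the 6 cells were all large libraries. Omp mRNA was found in 22 of 29 engrafted and 41 of 42 14-day OMP cells, in 27 of 46, 17 of 48 and 8 of 25 Neurog1 cells in time order, and in 89.9% of reference cells.

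Bach2 pairs a BTB domain with a basic leucine zipper, binds DNA with small Maf proteins, and is best known as a repressor in B and T lymphocytes. Bcl11a and Bcl11b are zinc finger proteins that work with the NuRD and BAF chromatin complexes; Bcl11a silences fetal globin genes, and Bcl11b directs T-cell commitment, the wiring of corticospinal neurons and, in the mouse olfactory epithelium, the choice between receptor gene classes. Myt1, Myt1l and St18 share a CCHHC zinc finger, and Myt1l holds non-neuronal genes down when fibroblasts are turned into neurons. In the olfactory lineage, precursors that express Neurog1 and then Neurod1 give rise to Gap43-positive immature neurons, which mature into Omp-positive neurons.

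Bcl11a is made as a long and a short protein-coding transcript that share an exon and part where that exon ends or reads on, and the join is shown because the cells below differed in the transcript length their Bcl11a values imply. The gene lies on the plus strand at chr11:24078056-24174123 (GRCm38, GENCODE M21), and the annotation lists Bcl11a-202 at 5989 bases and Bcl11a-203 at 2329 bases. The last 30 shared coding bases, chr11:24163259-24163288, are in lower case and the 60 bases that differ are in capitals. In Bcl11a-202 the exon reads on through chr11:24163289-24163348, and in Bcl11a-203 splicing skips 9410 bases to coding sequence at chr11:24172699-24172758.
Bcl11a-202: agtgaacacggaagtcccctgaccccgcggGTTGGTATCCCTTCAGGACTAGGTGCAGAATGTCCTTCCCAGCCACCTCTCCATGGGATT
Bcl11a-203: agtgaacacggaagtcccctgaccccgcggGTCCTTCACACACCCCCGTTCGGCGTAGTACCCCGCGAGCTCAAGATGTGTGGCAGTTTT

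Bach2 was found mainly in the Neurog1 sorts and was rare outside them. Its lowest and median level was 0 CPM in every group. The highest cell held 1.67 CPM in the engrafted OMP group and 364.7 CPM in the 14-day OMP group, 3542, 1845 and 2537 CPM in the uninjured, 5-day and 14-day Neurog1 groups, and 283.1 CPM in the reference. Bach2 was found in 0 of 29 engrafted cells (upper limit 10.3%) and in 2 of 42 14-day OMP cells (4.76%, interval 0.58 to 16.2%). It was found in 17 of 46 uninjured Neurog1 cells (37.0%, 23.2 to 52.5%), 9 of 48 5-day cells (18.8%, 8.95 to 32.6%) and 10 of 25 14-day cells (interval 21.1 to 61.3%), against 16 reference cells (11.6%, 6.77 to 18.1%). In the reference 9 of those 16 were the large libraries, and without them the share was 5.43% (7 of 129). The intervals of the 3 Neurog1 groups overlapped one another.

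The mean level of Bach2 was carried by few cells. It was 10.1 CPM in 14-day OMP cells and 0.0576 CPM in engrafted cells, 192.4, 112.8 and 207.7 CPM in uninjured, 5-day and 14-day Neurog1 cells, and 8.15 CPM in the reference. Without its highest cell the uninjured Neurog1 mean was 117.9 CPM, the 5-day mean 75.9 CPM and the 14-day mean 110.6 CPM, so the 3 means stood in the order uninjured, 14 days, 5 days instead of 14 days, uninjured, 5 days. Among cells where it was found, the median was 223.9, 322.3 and 165.7 CPM in the uninjured, 5-day and 14-day Neurog1 groups. Bach2 was in a smaller share of 5-day cells, and the median of the cells that held it was the highest there. Bach2 lies at chr4:32238804-32586108 on the plus strand. The opposite-strand gene Bach2os and the same-strand genes Bach2it1 and Gm24371 overlap it. No strand setting is given, so reads of Bach2 and Bach2os cannot be told apart.

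Bcl11a ran the other way from Bach2: it was found least often in uninjured Neurog1 cells and most often in 14-day OMP cells. It was found in 16 of 29 engrafted cells (55.2%, 35.7 to 73.6%) and 29 of 42 14-day OMP cells (69.05%, 52.9 to 82.4%). In Neurog1 cells it was found in 14 of 46 uninjured cells (30.4%, 17.7 to 45.8%), 31 of 48 5-day cells (64.6%, 49.5 to 77.8%) and 9 of 25 14-day cells (36%, 17.97 to 57.5%), against 62 reference cells (44.9%, 36.5 to 53.6%). Of the Neurog1 groups the 5-day share alone had an interval clear of the uninjured one, and the 14-day interval overlapped both. Cells with at least 100000 fragments were also thinned to that depth, with a single fragment counted as found. The shares were then 35.6%, 62.5% and 36% in uninjured, 5-day and 14-day Neurog1 cells, with 1 shallower uninjured cell left out.

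The median Bcl11a level was 25.98 CPM in engrafted and 75.9 CPM in 14-day OMP cells, 0, 41.6 and 0 CPM in uninjured, 5-day and 14-day Neurog1 cells, and 3.05 CPM in the reference. The lowest cell was at 0 in every group, and the highest held 5021, 2113, 1974, 4068, 1868 and 7869 CPM in that order of groups. Bcl11a thus reached high levels in single cells of every group. At 5 days 4 Neurog1 cells exceeded 1000 CPM, against 1 uninjured cell; the 3 highest 5-day cells made up 69.5% of the group's sum. Both Gm12064 and 4930538E20Rik overlap Bcl11a on the opposite strand.

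**Figure D1:**
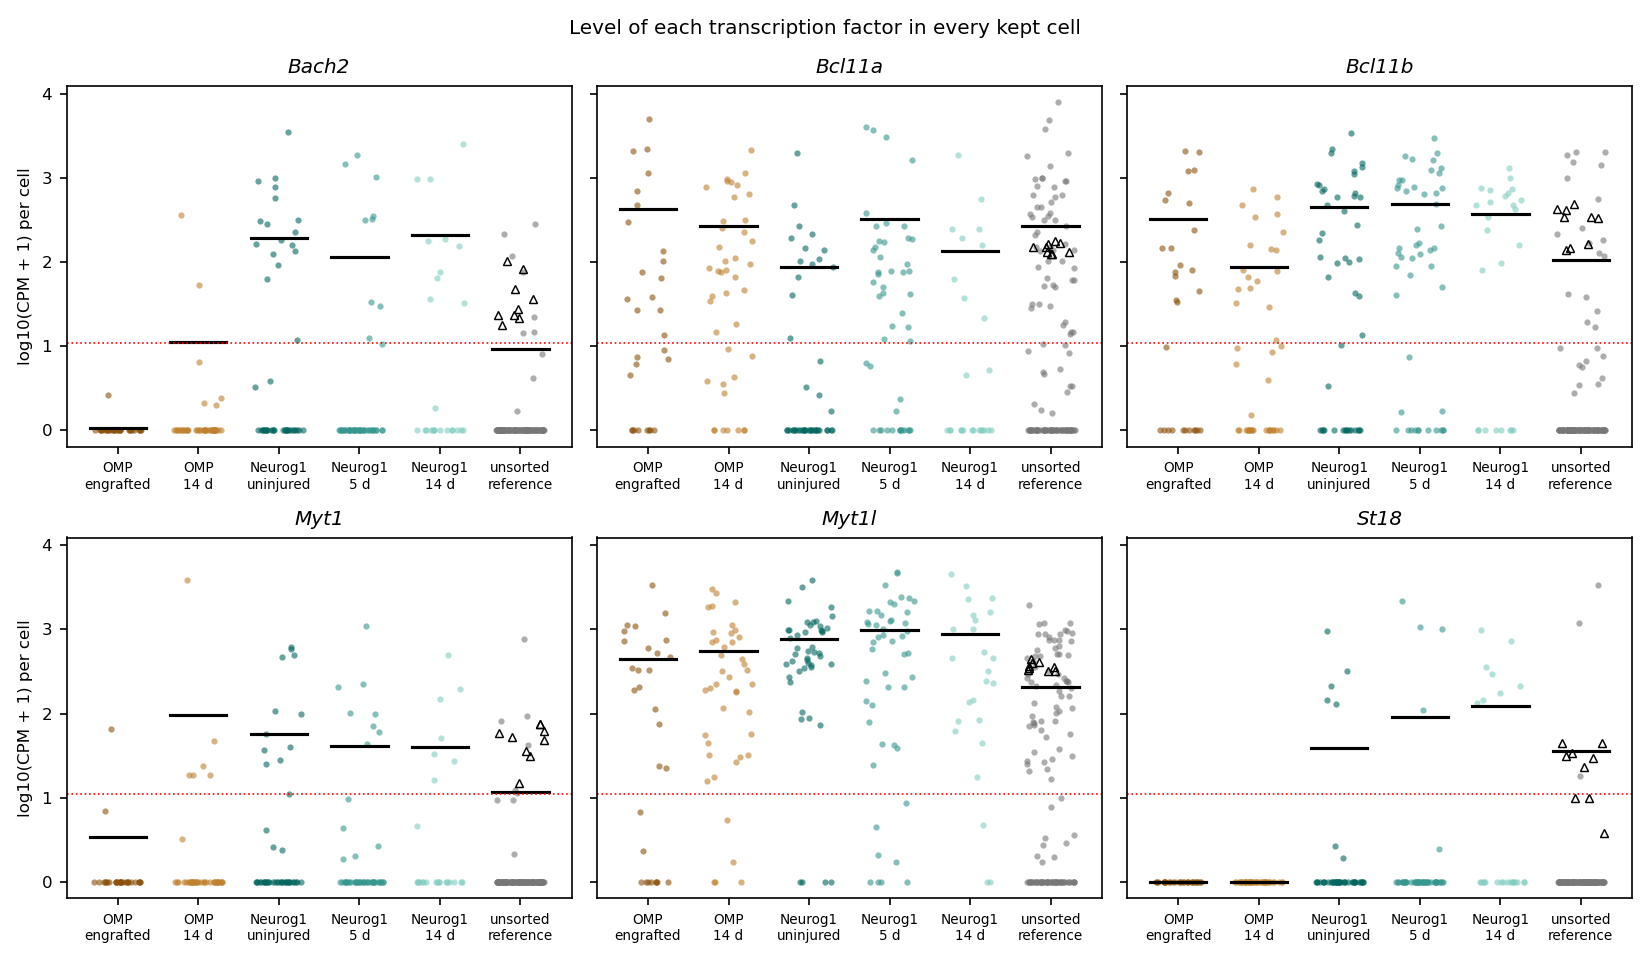
Each point is 1 kept cell, with log10(CPM + 1) on the vertical axis, the 6 groups along the horizontal axis and 1 panel per gene; black bars mark log10 of the mean CPM plus 1, the red dotted line marks 10 CPM, and open triangles are the 9 reference libraries with over 10000 genes. Bach2 and St18 are at or near 0 in nearly all OMP cells, while Myt1l lies above the dotted line in most cells of every sort.

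The transcript length implied by the deposited Bcl11a values varied widely from cell to cell, as it did for none of the other 5 genes. The deposited tables give each gene both as read signal and per kilobase, and the CPM divided by the FPKM (fragments per kilobase and per 1000000 fragments) of a cell is the transcript length, in kilobases, that the authors' software used. For Bcl11a this ratio ran between 1.23 and 6.88 kb over the cells where it was found, with 28 cells under 2 kb, 28 between 2 and 5 kb, and the rest at 5 kb or more; the 56 cells under 5 kb were 34.8% of them. The 2 transcripts shown above, at 5989 and 2329 bases, lie within that range, but the 28 cells under 2 kb lie below both. The annotation also lists a coding transcript of 1505 bases, Bcl11a-204, and the deposited values do not say which transcript the reads came from. The medians of the other genes were 8.65 kb for Bach2, 7.83 kb for Bcl11b, 5.31 kb for Myt1, 7.19 kb for Myt1l and 5.77 kb for St18, each with little spread. The 95th percentile of the Bcl11a ratio was 4.55 times its 5th percentile, against 1.03 for Bach2, Bcl11b and Myt1l. Of 5519 genes found in 50 or more cells, 21 (0.381%) reached the Bcl11a value.

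Cells under 5 kb made up 2 of the 16 engrafted cells with Bcl11a (12.5%, 1.55 to 38.3%) and 10 of 29 14-day OMP cells (34.5%, 17.9 to 54.3%). In Neurog1 cells they made up 5 of 14 uninjured cells (35.7%), 10 of 31 5-day cells (32.3%) and 2 of 9 14-day cells (22.2%), against 27 of 62 reference cells (43.5%, 30.99 to 56.7%), or 18 of 53 (33.96%) without the large libraries. All these intervals overlapped. Cells under 5 kb averaged 145.3 CPM and those at 5 kb or more averaged 719.0 CPM, so the ratio moved with the level of the gene, and what the level adds to the spread of lengths was not tested. Per kilobase, mean Bcl11a was 71.9 and 61.6 FPKM in engrafted and 14-day OMP cells, 18.5, 58.9 and 23.3 FPKM in uninjured, 5-day and 14-day Neurog1 cells, and 50.8 FPKM in the reference.

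**Figure D2:**
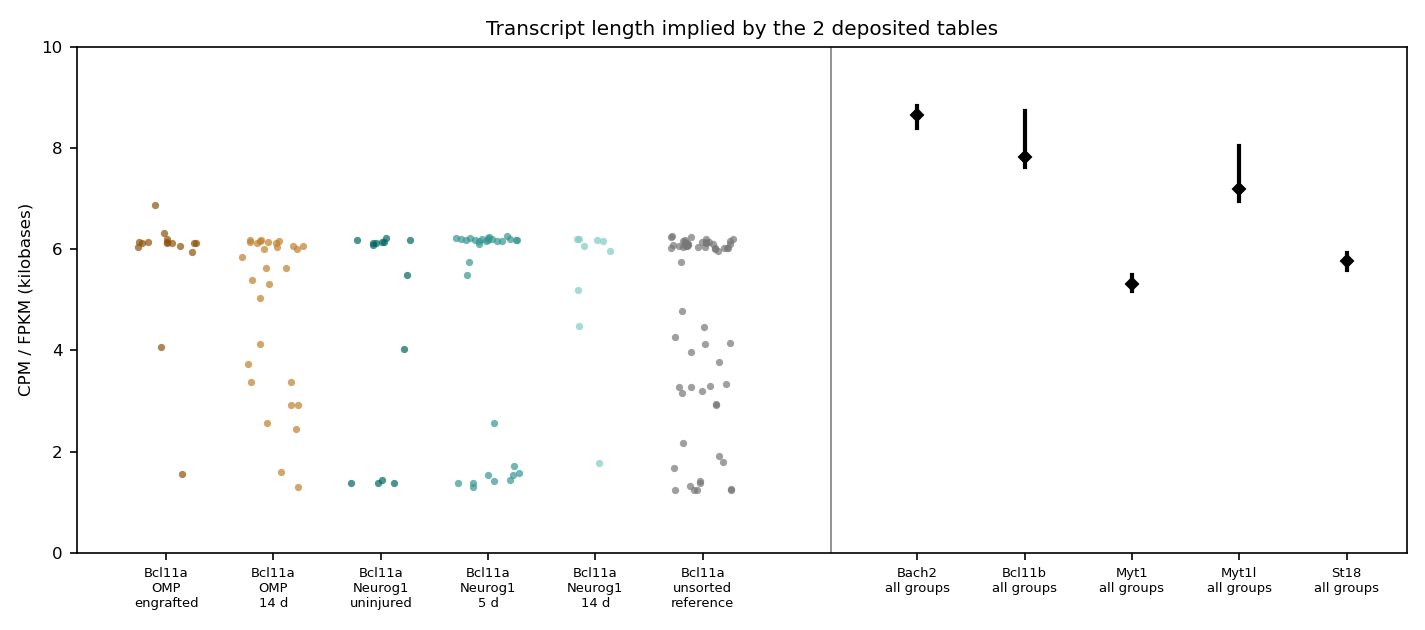
The vertical axis is CPM divided by FPKM, in kilobases, in cells where the gene was found; left of the line each point is 1 cell for Bcl11a in the 6 groups, and right of it bars span the lowest to the highest cell of all groups for the other 5 genes, with diamonds at the medians. Bcl11a points cluster near 6 kb, with 28 cells under 2 kb and 28 between 2 and 5 kb. They run between 1.23 and 6.88 kb in all, while each other gene stays near its own median.

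Bcl11b was found in most cells of the Neurog1 sorts, with no step at either time after injury. It was found in 17 of 29 engrafted (58.6%, 38.9 to 76.5%) and 18 of 42 14-day OMP cells (42.9%, 27.7 to 59.04%). In uninjured, 5-day and 14-day Neurog1 cells it was found in 29 of 46 (63.04%), 34 of 48 (70.8%) and 17 of 25 (68%), against 27 reference cells (19.6%, 13.3 to 27.2%). Every sort therefore lay above the interval of the reference. The median was 44.8 CPM in engrafted and 6.32 CPM in 14-day OMP cells, 103.3, 141.96 and 342.1 CPM in the Neurog1 groups in time order, and 0 in the reference. Engrafted OMP cells averaged 320.1 CPM and 14-day OMP cells 86.8 CPM, and the Neurog1 groups averaged 445.99, 485.8 and 366.2 CPM, against 105.2 CPM in the reference. Among cells with Bcl11b the median was 147.5 CPM in engrafted and 108.2 CPM in 14-day OMP cells, and 3 cells held 58.1% of the engrafted sum. Bcl11b lies on the minus strand at chr12:107910403-108003602 with no other gene over it.

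Bcl11b has been tied to receptor class in mice, so cells were also split by their most abundant receptor mRNA. Over the 5 sorts Bcl11b was found in 2 of 10 cells whose top receptor lay in the class I cluster; with another top receptor it was in 33 of 62 OMP cells and 63 of 87 Neurog1 cells. The 2 class I cells held 2203 and 730.9 CPM. In the reference the counts were 3 of 35 class I cells and 21 of 90 others, or 12 of 81 others without the large libraries. The reference class I interval, 1.80 to 23.1%, overlapped those of the others, 15.1 to 33.4% and 7.90 to 24.4%. By mean level the reference class I cells stood higher, at 153.1 CPM against 79.8 CPM, or 54.2 CPM without the large libraries. Bcl11b was found in 3 of those class I cells, and the highest held 2040 CPM. Over the 5 sorts the means were 293.5 CPM in class I cells and 354.3 CPM in others.

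Myt1l was the most widespread of the 6 genes. Found in 19 of 29 engrafted cells (65.5%, 45.7 to 82.1%) and 37 of 42 14-day OMP cells (88.1%), it was also in 42 of 46 uninjured (91.3%, 79.2 to 97.6%), 40 of 48 5-day (83.3%) and 22 of 25 14-day Neurog1 cells (88%), against 75 reference cells (54.3%, 45.7 to 62.8%). Median levels were 187.4 and 222.7 CPM in engrafted and 14-day OMP cells, 530.1, 718.7 and 317.1 CPM in the Neurog1 groups in time order, and 27.3 CPM in the reference. Myt1l was high before and after injury, and still present in cells sorted for the mature-neuron reporter. Its locus is chr12:29528384-29923213 on the plus strand, and the opposite-strand genes Gm20208 and C630031E19Rik overlap it.

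Per kilobase, Myt1l also led the 6 genes in every Neurog1 group and in 14-day OMP cells. Its mean was 106.5, 134.8 and 120.8 FPKM in uninjured, 5-day and 14-day Neurog1 cells, where Bcl11b averaged 56.7, 61.9 and 46.6 FPKM. Myt1 and St18 were the low members of the family: in the same groups Myt1 averaged 10.4, 7.47 and 7.30 FPKM and St18 averaged 6.52, 15.6 and 20.8 FPKM. In engrafted cells Bcl11a, at 71.9 FPKM, stood above Myt1l at 60.8 FPKM.

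Myt1 was found in a minority of cells in every group. It was in 1 of 29 engrafted cells (3.45%) and 6 of 42 14-day OMP cells (14.3%), in 11 of 46 (23.9%, 12.6 to 38.8%), 8 of 48 (16.7%) and 7 of 25 (28%) Neurog1 cells in time order, and in 15 reference cells (10.9%). Without the large libraries the reference count was 6 of 129. The 14-day OMP mean of 94.5 CPM was the highest of any group, but 1 cell at 3846 CPM made up 96.9% of it and the remaining cells averaged 3.03 CPM. The Neurog1 means were 55.6, 39.8 and 38.8 CPM in time order. The order of mean levels between OMP and Neurog1 cells thus turned on that single cell.

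St18 was the most restricted of the 6 genes. No fragment was listed in any of the 42 14-day OMP cells (limit 7.14%) or the 29 engrafted cells (limit 10.3%). It was found in 5 of 46 uninjured (10.9%, 3.62 to 23.6%), 4 of 48 5-day (8.33%, 2.32 to 19.98%) and 8 of 25 14-day Neurog1 cells (32%, 14.9 to 53.5%), against 9 reference cells (6.52%), or 3 of 129 without the large libraries. St18 levels were high where present: 945.1 CPM in the top uninjured cell, 2182, 1066 and 1010 CPM in the top 3 cells at 5 days and 992.7 and 717.4 CPM in the top pair at 14 days, with no Neurog1 cell between 10 and 107.8 CPM. The 14-day share was the highest, and its interval overlapped those of both other Neurog1 groups. In the reference the 2 top cells held 3319 and 1202 CPM and the others at most 43.99 CPM. St18 lies on the plus strand at chr1:6487231-6860940, and Myt1 at chr2:181763332-181827797, with no other gene over either.

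**Figure D3:**
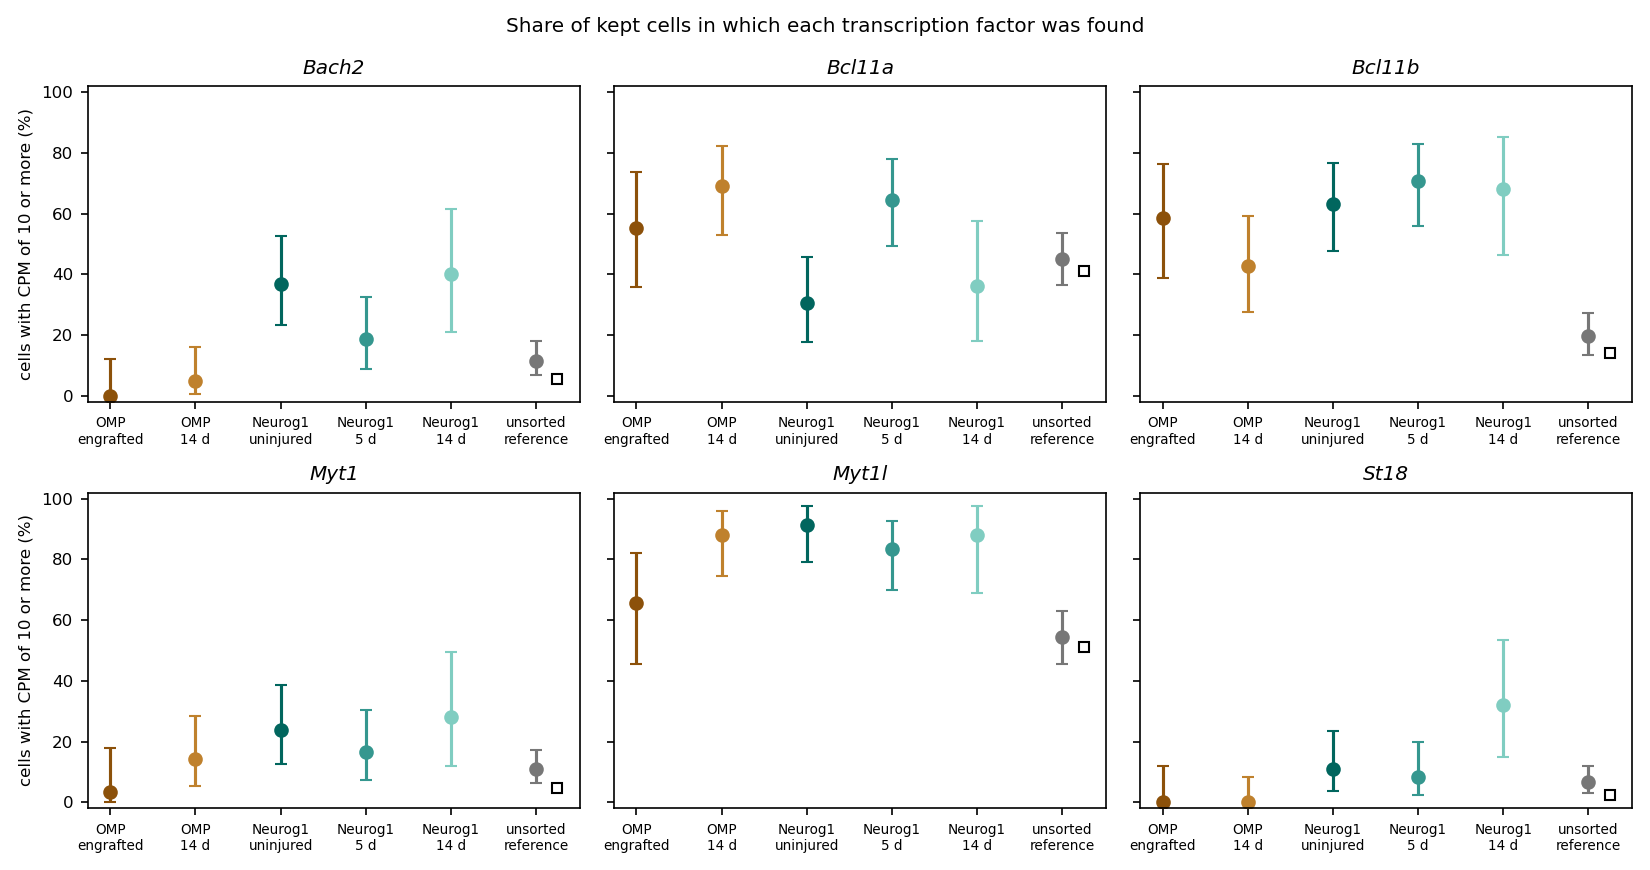
The vertical axis is the percent of kept cells with a CPM of 10 or more, for the 6 groups along the horizontal axis and 1 panel per gene; bars are exact 95% intervals over cells, and open squares are the reference without its 9 large libraries. St18 is at 0 in both OMP groups, Bcl11a is higher at 5 days (64.6%) than in uninjured Neurog1 cells (30.4%), and Bcl11b is above the reference in every sort.

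Put as ratios of means, uninjured Neurog1 cells stood above the reference for 4 of the 6 genes and below it for 1. The log2 ratio of mean CPM plus 1 was 4.40 for Bach2 (192.4 against 8.15 CPM), 2.27 for Myt1, 2.07 for Bcl11b and 1.89 for Myt1l, and -1.65 for Bcl11a (85.2 against 270.3 CPM). St18 was at 38.1 CPM in Neurog1 cells and 34.5 CPM in the reference, a log2 ratio of 0.14. Of all genes with a mean of 5 CPM or more in either group, 22.4% were 2-fold or more higher in this comparison and 32.6% were 2-fold or more lower; because the genes were picked on such differences, nothing is read from their counts. Without the 9 large libraries the log2 ratios of Bach2, Myt1, Bcl11b, Myt1l and Bcl11a were 4.83, 2.65, 2.28, 1.97 and -1.70. Against run 1 alone and run 2 alone they were 4.83 and 4.08 for Bach2 and -1.42 and -1.85 for Bcl11a. Myt1 moved most with the run, at 1.58 against run 1 and 3.61 against run 2. The reference mixes cell types, so fewer cells that express a gene and less of it per cell both lower its mean.

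Within the Neurog1 sorts, Bcl11a and St18 were the members of the 6 past 2-fold at either time after injury. At 5 days against uninjured, the log2 ratio was 1.92 for Bcl11a (323.9 against 85.2 CPM) and 1.24 for St18 (90.99 against 38.1 CPM), where 20.9% of all genes were as far up and 26.3% as far down. At 14 days against uninjured, St18 alone passed 2-fold, with a log2 ratio of 1.64 (120.6 against 38.1 CPM), where 22% of genes were as far up and 29.9% as far down. At 14 against 5 days, Bcl11a alone passed 2-fold, with a log2 ratio of -1.25 (135.6 against 323.9 CPM), where 23.8% of genes were as far up and 27.1% as far down. These 3 comparisons share groups, so they are not independent of one another. Bach2, with -0.77 at 5 days and 0.11 at 14 days against uninjured, stayed within 2-fold, as did Bcl11b (0.12 and -0.28), Myt1 (-0.47 and -0.51) and Myt1l (0.34 and 0.17). With all libraries the Bach2 values were -2.24 and -1.34. St18 was in no larger a share of cells at 5 days (4 of 48) than uninjured (5 of 46), 3 cells held 97.5% of its 5-day sum, and its log2 ratio with summed fragments was 0.95. Mature-neuron markers differed in the same comparisons: of 12 measured, 9 were at least 2-fold lower at 5 days (median log2 ratio -1.99) and 8 at 14 days (-1.44), with 0 higher in either, and their part in the Bcl11a and St18 values was not tested. Of 8 measured sustentacular (support cell) markers all 8 were higher at 5 days. In 2 of the 5-day cells the summed sustentacular markers were above the neuron markers; without those 2 the 5-day ratios were 1.97 for Bcl11a and 1.30 for St18.

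Cells sorted for the OMP reporter at 14 days had less Bach2, Bcl11b and St18 than Neurog1 cells of the same day. The log2 ratio was -4.23 for Bach2 (10.1 against 207.7 CPM) and -2.06 for Bcl11b (86.8 against 366.2 CPM), where 28.6% of all genes were lower by 2-fold or more and 32.4% higher. St18, at 0 against 120.6 CPM, was at least 35.7-fold lower, taking 3 fragments per library as the floor. Bcl11a (266.1 against 135.6 CPM, log2 ratio 0.97) and Myt1l (549.4 against 868.9 CPM, -0.66) stayed within 2-fold, but in cells with 2000 or more genes the log2 ratio of Bcl11a was 2.12. The log2 ratio of 1.26 for Myt1 came from the single high OMP cell described above. Leaving out 1 OMP cell with more support cell than neuron marker gave -4.20 for Bach2, -2.03 for Bcl11b and 1.00 for Bcl11a.

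In engrafted over 14-day OMP cells, Bcl11b had a log2 ratio of 1.87 (320.1 against 86.8 CPM), where 21.7% of all genes were at least 2-fold higher and 35% lower by that much. The few high engrafted cells described above weigh on it, and with all libraries it was 0.51, short of 2-fold. Without the 3 engrafted cells and the 1 14-day cell that held more support cell than neuron marker, the ratio was 1.99. Bach2 and Myt1 were near 0 in engrafted cells, at 0.0576 and 2.45 CPM, against 10.1 and 94.5 CPM in 14-day OMP cells, where each rested on 1 or 2 cells. Bcl11a (429.1 against 266.1 CPM, 0.69) and Myt1l (442.3 against 549.4 CPM, -0.31) were within 2-fold, and St18 was at 0 in both. Of the engrafted libraries 60 of 89 were left out for few genes, and the kept ones were the shallowest of the sorts.

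**Figure D4:**
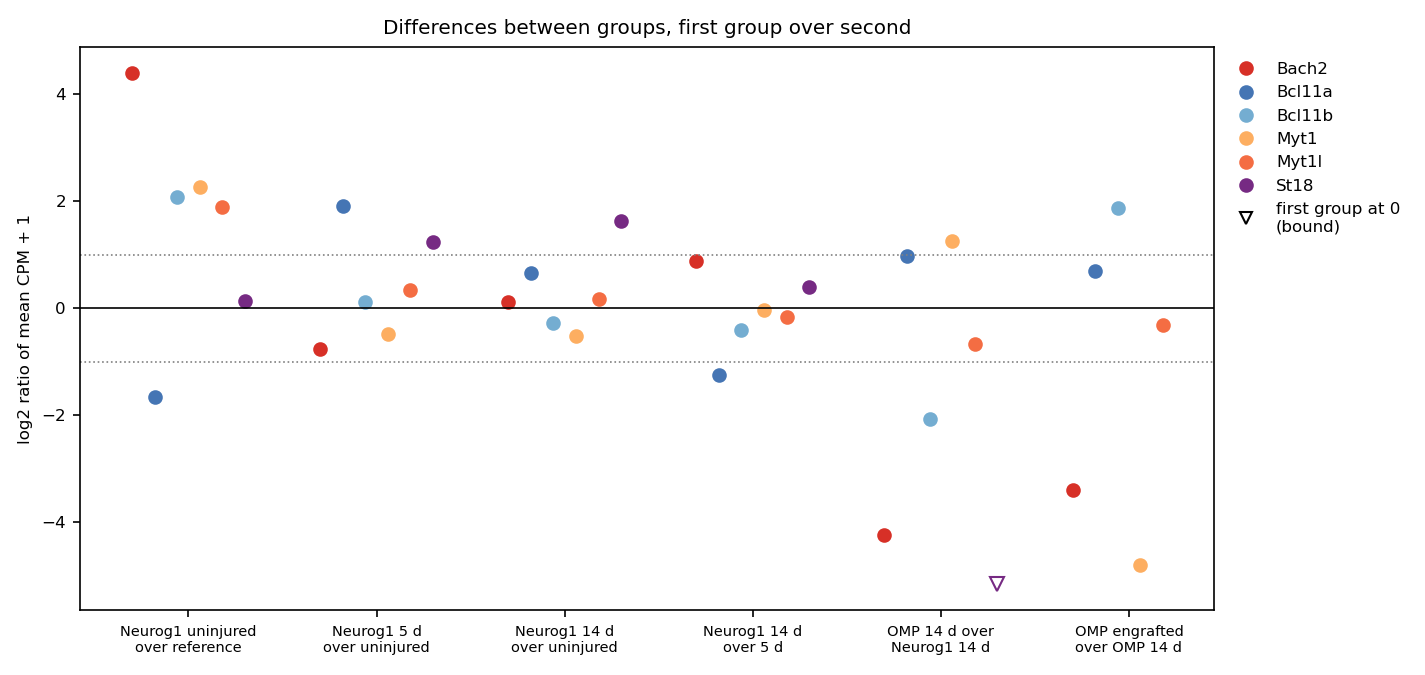
The vertical axis is the log2 ratio of mean CPM plus 1, first group over second, for the 6 comparisons along the horizontal axis, with 1 point per gene; dotted lines mark 2-fold, and the open triangle is the bound for St18, which is at 0 in 14-day OMP cells. Bach2 is at 4.40 in uninjured Neurog1 cells over the reference and at -4.23 in 14-day OMP over Neurog1 cells, while Bcl11a lies on the other side of 0 from Bach2 in both.

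The mRNA that each Neurog1-sorted cell held separated the 6 genes. Of these cells, 53 had Neurog1 mRNA, 53 had Gap43 mRNA without Neurog1, and 13 had neither. St18 was found in 14 of the 53 Neurog1-mRNA cells (26.4%, 15.3 to 40.3%), 2 of the 53 Gap43 cells (3.77%, 0.46 to 12.98%) and 1 of the 13 others, and 92.7% of its summed CPM lay in the Neurog1-mRNA cells. Myt1 was found in 19 (35.8%, 23.1 to 50.2%), 6 (11.3%, 4.27 to 23.03%) and 1 of them, with 87.6% of its sum in Neurog1-mRNA cells. Both genes thus sat mainly in cells with Neurog1 mRNA, although the reporter sorted all of them. Bach2 was found in 23 (43.4%, 29.8 to 57.7%) of the Neurog1-mRNA cells and 12 (22.6%, 12.3 to 36.2%) of the Gap43 cells.

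Bcl11a had the opposite split, with 20 of 53 Neurog1-mRNA cells (37.7%, 24.8 to 52.1%) and 31 of 53 Gap43 cells (58.5%, 44.1 to 71.9%). Myt1l was found in 48 of 53 in both classes, and Bcl11b in 42 (79.2%) and 34 (64.2%). Within the groups, Bcl11a was found in 4 of 23 uninjured Neurog1-mRNA cells, 13 of 18 5-day and 3 of 12 14-day ones, and in 8 of 16, 17 of 25 and 6 of 12 Gap43 cells. The share within the class thus differed more between uninjured and 5-day cells among Neurog1-mRNA cells than among Gap43 cells. By count, however, more of the 5-day cells with Bcl11a were Gap43 cells (17) than Neurog1-mRNA cells (13). At 5 days the opposite split was absent, with 13 of 18 Neurog1-mRNA cells and 17 of 25 Gap43 cells. St18 was found in 5 of 23, 4 of 18 and 5 of 12 Neurog1-mRNA cells in time order, and in 0 of 16, 0 of 25 and 2 of 12 Gap43 cells.

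**Figure D5:**
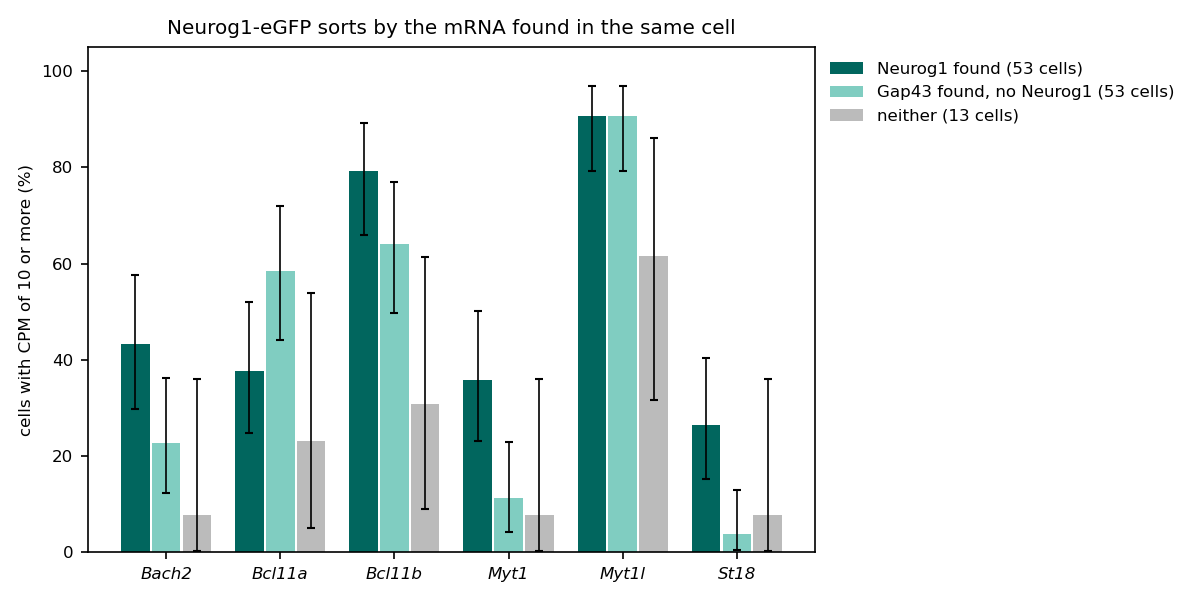
Bars give the percent of Neurog1-eGFP+ cells with a CPM of 10 or more for each gene, in 53 cells with Neurog1 mRNA, 53 with Gap43 but no Neurog1 mRNA, and 13 with neither; whiskers are exact 95% intervals over cells. St18 (26.4 against 3.77%) and Myt1 (35.8 against 11.3%) are higher in Neurog1-mRNA than in Gap43 cells, Bcl11a is lower (37.7 against 58.5%), and Myt1l is equal.

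The 17 Neurog1-sorted cells with St18 often carried precursor mRNAs. Neurod1, the bHLH factor that follows Neurog1, was found in 13 of the 17 (76.5%), against 16 cells without St18 (15.7%). Insm1, a zinc finger factor of dividing precursors, was found in 82.4% against 42.2%, Gap43 in 29.4% against 70.6% and Omp in 17.6% against 48.04%. The summed mature-neuron markers had a median of 69.1 CPM in St18 cells and 2108 CPM in the others. By receptor, St18 was found in 9 of 26 cells with no receptor mRNA at 50 CPM or more, 0 of 6 with a class I receptor on top and 8 of 87 with another. For Bach2 the groups differed: the median precursor sum was 6211 CPM in uninjured cells with it and 715.4 CPM in those without, 6354 and 319.2 CPM at 5 days, and 2198 and 2614 CPM at 14 days. For Myt1 the same medians were 5961 and 847.2 CPM uninjured, 1437 and 469.9 CPM at 5 days, and 1123 and 2807 CPM at 14 days, and Neurod1 was found in 23.1% of cells with Myt1 and 24.7% without. Bach2 and Myt1 thus went with a higher median precursor sum in uninjured and 5-day cells and not in 14-day cells. At 14 days Neurog1, Insm1 and Neurod1 were nevertheless each found more often with either gene than without. For Myt1 the shares were 71.4 and 38.9%, 71.4 and 55.6%, and 28.6 and 22.2%, with 7 cells holding it. For Bach2 they were 50 and 46.7%, 80 and 46.7%, and 30 and 20%, with 10 cells holding it.

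In uninjured Neurog1 cells Bcl11a went with the later stage. The 14 cells with Bcl11a had a median mature-neuron sum of 8880 CPM, against 901.9 CPM in the 32 without, and a median precursor sum of 414.8 CPM, against 3125 CPM. At 5 days the same medians were 2113 CPM in 31 cells with Bcl11a and 883.9 CPM in 17 without for mature-neuron markers, and 328.5 and 1048 CPM for precursor markers. At 5 days Neurog1, Insm1 and Neurod1, all on the precursor list, were nevertheless found more often with Bcl11a than without. The shares were 41.9 and 29.4%, 61.3 and 29.4%, and 32.3 and 11.8%. In uninjured cells the shares of these genes were 28.6 and 59.4%, 35.7 and 40.6%, and 28.6 and 21.9%. Cells with Bcl11a were also deeper in the uninjured group, at a median of 1112102 fragments against 705720, and what depth adds was not tested.

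Cells often held several of the 6 genes. At least 3 were found in 6 of 29 engrafted and 16 of 42 14-day OMP cells, in 21 of 46 uninjured, 26 of 48 5-day and 17 of 25 14-day Neurog1 cells, and in 23 reference cells (16.7%), or 14 of 129 without the large libraries. Over the Neurog1-sorted cells Bcl11b and Myt1 were found together in 24, where the product of their shares gives 17.5, and 92.3% of Myt1 cells held Bcl11b. Bach2 and St18 met in 10 cells (product 5.14) and Bach2 and Myt1 in 12 (product 7.87). Bach2 and Bcl11a met in 15, close to the product of 16.3. The correlation of log levels between pairs of the 6 genes ran between -0.27 (Myt1l with St18) and 0.31 (Bcl11b with Myt1), which is weak in counts this sparse.

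In the unsorted reference Bcl11a and Myt1l were seen in many cells rich in neuron mRNA and in many rich in support cell mRNA, and the other genes were rare once the 9 large libraries, all of them among the neuron-marker cells, were left out. Of 64 cells whose summed sustentacular markers exceeded their neuron markers, Bach2 was found in 3, Bcl11b in 5, Myt1 in 2 and St18 in 1, against 13, 22, 13 and 8 of the 74 neuron-marker cells, or 4, 13, 4 and 2 of 65 without the large libraries. Bcl11a was found in 22 of the 64 (34.4%) and 40 of the 74 (54.1%), and Myt1l in 23 (35.9%) and 52 (70.3%). Without the large libraries the neuron-marker counts were 31 of 65 (47.7%) for Bcl11a and 43 of 65 (66.2%) for Myt1l. The sums were within 2-fold of each other in 12 of the 64 and 10 of the 74. Median depth was 646318 fragments in the support-rich cells and 463222 in the neuron-rich cells. By run, the support-rich cells with Myt1l were 3 of 24 in run 1 and 20 of 40 in run 2, while those with Bcl11a were 9 of 24 and 13 of 40. All 9 reference cells with St18 also held Neurod1, but 6 of the 9 were large libraries.

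The genes most like St18 over the Neurog1-sorted cells were Dnase2a, Mfng and Scg2, with Pearson's r of log2(CPM + 1) of 0.69, 0.69 and 0.67. Mfng encodes a glycosyltransferase that modifies Notch receptors, and 12 of the 17 St18 cells held it; Scg2 encodes a granin of secretory granules and was in 14 of the 17. The other 5 genes had no neighbour above 0.48 among the 6415 genes ranked. Bach2 was closest to the polarity gene Pard3b (0.48, both in 19 cells), Myt1l to Flrt1 (0.47), Myt1 to Zfp518b (0.44), Bcl11a to Dynlt3 (0.41) and Bcl11b to Fbxo32 (0.39). The cells share capture and depth, so the values describe these libraries.

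Partners that these factors are known to use were also measured. Of 19 BAF subunits with enough signal, 9 were at least 2-fold higher and 0 lower in uninjured Neurog1 cells than in the reference; their median log2 ratio was 0.72, where the median of all genes was -0.16. Smarce1, a core BAF subunit, averaged 945.7 CPM in Neurog1 cells and 201.7 CPM in the reference. Beside the 22.4% of all genes higher and 32.6% lower in this comparison, 3 of 13 NuRD subunits were higher and 6 lower; the deacetylase Hdac2 was at 466.98 against 62.2 CPM and its relative Hdac1 at 3.69 against 34.3 CPM. Of 9 Sin3 and CoREST genes 5 were higher and 2 lower, with the CoREST scaffold Rcor1 at 257.9 against 54.5 CPM. Hdac1 and Hdac2 stand in both lists.

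In 14-day OMP over 14-day Neurog1 cells more BAF subunits were lower than higher. Of 19 BAF subunits 1 was higher and 8 lower (median -0.78, all genes 0.04), of 11 NuRD subunits 3 and 4, and of 8 Sin3 and CoREST genes 2 and 3, beside 32.4% of all genes higher and 28.6% lower. Rcor1 was at 20.2 against 294.8 CPM, Smarcd2 at 73.5 against 462.6 CPM, Hdac2 at 112.02 against 1033 CPM and Hdac1 at 48.3 against 2.88 CPM. Hdac2 and Hdac1 thus differed in opposite directions within each comparison. In engrafted over 14-day OMP cells 6 of 11 NuRD subunits were lower and 1 higher, and BAF gave 2 higher and 4 lower of 18. Of all genes 21.7% were higher and 35% lower in that comparison. The demethylase Kdm1a was at 10.6 against 103.4 CPM.

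Among neuronal transcription factors the counts differed between the sorts. Of 23 measured, 11 were higher and 2 lower in uninjured Neurog1 cells than in the reference, beside 22.4% of all genes higher and 32.6% lower. Of 22, 6 were higher and 12 lower in 14-day OMP than in 14-day Neurog1 cells (median -1.38). Beside them 32.4% of all genes were higher and 28.6% lower. Neurod1 was at 1.24 CPM in 14-day OMP cells and 309.2 CPM in 14-day Neurog1 cells, and the bHLH gene Nhlh2 at 2.07 and 319.6 CPM. Of 9 Notch effector and Id genes, most of which hold precursors back, 4 were lower and 0 higher in uninjured Neurog1 cells than in the reference. Hes1 was listed at 0 in uninjured Neurog1 cells, against 45.3 CPM in the reference, and was found in 2 of 48 5-day cells. Of 9 relatives and partners of Bach2, 3 were lower and 0 higher in the same comparison, near the 32.6% of all genes that were lower, with the small Maf gene Mafk at 1.29 against 37.5 CPM. Within the Neurog1 sorts none of the 6 lists of partners and lineage genes had more than 5 genes past 2-fold in one direction. Of all genes, 20.9 to 23.8% were higher and 26.3 to 29.9% lower in those comparisons. The lists held 7 to 23 measured genes, so a low count could still be a large share. At 14 days over uninjured 4 of 11 NuRD subunits were lower and 2 higher. At 5 days over uninjured 3 of 8 relatives and partners of Bach2 were lower and 1 higher. Hdac2 was at 1033 CPM at 14 days and 466.98 CPM uninjured, and the SoxC factor gene Sox12 at 66.4 CPM at 5 days and 12.8 CPM uninjured.

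Promoters are shown for Bach2 and Myt1, both found more often with Neurog1 mRNA, because Neurog1 and Neurod1 bind the E-box, CANNTG. The 250 bases before the start are printed from RefSeq (GRCm38.p6, plus strand), with each E-box in capitals; the pattern reads the same on both strands. Bach2 has 1 listed promoter, chr4:32417185-32417434, which lies inside the annotated gene, chr4:32238804-32586108, and not before its start. Myt1 has 3. The first, chr2:181763082-181763331, directly before the annotated gene start, and the second, chr2:181766779-181767028, are printed to show windows without and with the motif. No promoter is listed for St18.
Bach2: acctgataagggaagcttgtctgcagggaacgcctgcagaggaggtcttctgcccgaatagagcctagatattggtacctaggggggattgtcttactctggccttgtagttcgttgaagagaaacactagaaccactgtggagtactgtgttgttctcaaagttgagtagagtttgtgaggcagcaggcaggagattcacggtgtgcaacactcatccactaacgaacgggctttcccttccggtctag
Myt1 first: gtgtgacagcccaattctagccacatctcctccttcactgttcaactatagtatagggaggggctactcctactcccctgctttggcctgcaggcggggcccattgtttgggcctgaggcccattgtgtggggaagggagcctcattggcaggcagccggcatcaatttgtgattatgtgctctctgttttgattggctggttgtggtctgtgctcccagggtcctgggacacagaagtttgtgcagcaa
Myt1 second: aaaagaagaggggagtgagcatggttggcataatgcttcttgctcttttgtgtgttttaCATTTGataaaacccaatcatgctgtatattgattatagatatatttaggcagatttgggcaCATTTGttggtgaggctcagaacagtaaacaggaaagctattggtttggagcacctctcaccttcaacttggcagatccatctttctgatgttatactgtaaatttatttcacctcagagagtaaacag
The Bach2 window holds 0 E-boxes, and the 3 Myt1 windows hold 0, 2 and 1. Of 11 promoters listed for Bach2, Bcl11a, Bcl11b, Myt1 and Myt1l, 7 held at least 1, beside 66.2% of 32851 promoters of that length. The match is to letters alone.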

How the data were processed

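The 469 single-cell libraries were made on the Fluidigm C1 with Nextera XT kits, per the labels' protocols. Per the submitters' processing notes the tools were FastQC, STAR 2.5.2a, Cufflinks 2.2.1 and Cuffnorm, with the build mm9; which annotation and strand setting were used is not given in the sources used here. Deposited files hold 2 kinds of value. The authors deposited a table of read signal per gene, scaled between libraries and therefore not whole numbers, and a table of FPKM (fragments per kilobase and per 1000000 fragments). Signal columns summed to between 483147 and 651792.

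Each deposited signal value was divided by its column sum and multiplied by 1000000 to give CPM. Of 23308 gene entries, 27 had names turned into dates (0.418% of signal) and were left out. Libraries with fewer than 1000 genes at a value of 1 or more were left out, and 328 of 469 were kept (138 of 192 in the reference). Fragments were recovered from the smallest step of each column; a median of 98.5% of low values (lowest library 96.5%) came out whole within 0.02. Intervals are Clopper-Pearson 95%, and a count of 0 allows 3 cells of the total; both cover counting error only. Reads were amplified with no molecular identifier, so they cannot be counted as separate molecules.

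Differences are log2 ratios of mean CPM + 1 over kept cells, called at 2-fold with a mean of 5 CPM or more in either group. The labels name no animals, so no test across samples was possible. Shares were also recomputed on fragments thinned to 100000 per cell, in cells that held at least that many. The genes named are the 6 transcription factors and, from each of 6 lists of partners and lineage genes, up to 3 genes per comparison with a mean of 20 CPM or more and the widest ratio; likeness was ranked among genes found in at least 10% of the Neurog1-sorted cells. Members and lists were chosen with earlier results of these data known. Cell marker sums add the CPM of fixed lists; class I receptors are the 124 receptor genes of the chromosome 7 cluster by RefSeq order. Doublets were not called. Positions and sequences are GRCm38 (GENCODE M21, RefSeq GRCm38.p6), not mm9, and no coordinate was converted. Python 3.11.15, numpy 2.4.6, pandas 2.3.3, scipy 1.17.1 and matplotlib 3.10.9 were used, and the scripts were tested on simulated data.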

Additional observations from a re-analysis of the deposited data

Results flagged for a closer look

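The libraries left out for holding fewer than 1000 genes were not used in any comparison, and they have a median of 46632 fragments. Bcl11a was nevertheless found in 17 of them (12.1%), Bcl11b in 7 (4.96%) and Myt1l in 25 (17.7%), all above the 2.13% that a count of 0 would allow. By group the Bcl11a libraries were 2 engrafted and 3 14-day OMP libraries, 3 uninjured and 1 5-day Neurog1 library, and 8 of the reference. Of the Myt1l libraries 7 were engrafted, 2 were 14-day OMP, 5, 1 and 1 were Neurog1 libraries in time order, and 9 were of the reference. Bach2 was found in 3, Myt1 in 1 and St18 in 2, at or under that limit; 2 of the 3 with Bach2 were engrafted, a group with 0 of 29 among the kept cells. The highest single values among these libraries, such as 22037 CPM for Bach2 and 24889 CPM for Myt1l, stand on few fragments in all.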

How the results depend on the processing

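No paired analysis was possible because the number in each title belongs to 1 library and no group shares a replicate number with another, and no result comes from a test. The count of the 6 genes at least 2-fold different stayed within 1.5 times under 56 of 61 alternatives. For 14-day over uninjured Neurog1 cells it was 2 instead of 1 with all libraries and 2 without the highest cell of each gene and group. For 14-day over 5-day Neurog1 cells it was 2 instead of 1 with the FPKM table and 2 with summed fragments. For engrafted over 14-day OMP cells it was 1 instead of 3 without the highest cell. Myt1 in 14-day OMP over 14-day Neurog1 cells reversed, at a log2 ratio of 1.26, to -3.34 in cells with 2000 or more genes and to -2.35 without the highest cell; both leave out the single OMP cell that held 96.9% of its sum. The share of cells with 3 or more of the genes was 16.7% instead of 38.1% in 14-day OMP cells with found set at 50 CPM, and 10.9% instead of 16.7% in the reference without libraries of over 10000 genes; the other 29 of 31 shares moved little. Of the ratios of single genes under the alternatives 4 were no longer past 2-fold, 14 came past it, 2 reversed, 5 moved and the rest kept direction and side. Among them, the log2 ratio of Bcl11b in engrafted over 14-day OMP cells was 0.51 with all libraries, and that of St18 at 5 days over uninjured was 0.95 with summed fragments; that of Bcl11a in 14-day OMP over 14-day Neurog1 cells was 2.12 in cells with 2000 or more genes, against 0.97. The cause of these moves was not tested. At a floor of 5 to 13 fragments per cell, an absent gene and a low one cannot be told apart.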
